A study of Mus musculus with 6 samples.

Results

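Described here are 44 glutathione and NRF2 antioxidant genes in mouse livers with and without SHMT2 in hepatocytes. The members were chosen by gene symbol. They are the glutathione S-transferases of the alpha, kappa, mu, omega, pi, theta and zeta classes, the microsomal transferases (Mgst), the glutathione peroxidases (Gpx), the gamma-glutamyltransferases (Ggt), and Gclc, Gclm, Gss, Gsr, Txnrd1, Nqo1, Srxn1, Hmox1, Nfe2l2 and Keap1. Of 47 symbols that matched, 44 had at least 10 counts in at least 3 of the 6 samples, a minimum that 16281 of the 49671 genes in the table met. Gpx5, Gsto2 and Gstt4 did not meet it and are not described further. All 44 were among the 16089 genes tested.

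RNA was sequenced from whole livers of 3 SHMT2 fl/fl mice and 3 SHMT2 HKO mice, labelled WT and KO in the deposited records. All 6 mice were males, on a C57BL/6J background, with Shmt2 exons flanked by loxP sites. The SHMT2 HKO mice also carried Albumin-Cre, a driver meant for hepatocytes. Recombination in bile duct cells, which share a precursor with hepatocytes, was not tested. All mice ate the AMLN diet, a high-fat diet with added fructose and cholesterol, for 18 weeks from an age of 4 weeks, and were fasted before collection at 22 weeks. Mice on chow and mice with Albumin-Cre alone were not analysed here, so every comparison below is between genotypes on the AMLN diet. The labels do not say more about how the replicates were obtained, so p-values measure the spread between these samples.

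Gene counts were 23090837 to 34089722 per library, and the 44 genes held 0.989% to 1.16% of them. Shmt2, the targeted gene, was at 94.6, 109 and 93.9 CPM (the count relative to the library size, scaled between libraries by TMM) in SHMT2 fl/fl mice 1, 2 and 3, and at 24.9, 28.3 and 19.3 CPM in SHMT2 HKO mice 1, 2 and 3. The groups did not overlap, with a log2 fold change of -2.04 (SE 0.16, adjusted p = 0.000639). An exact two-sided permutation test gave p = 0.1, and 3 against 3 mice cannot go lower. Hepatocyte markers summed to 48105 to 59854 CPM in SHMT2 fl/fl and 63341 to 94504 CPM in SHMT2 HKO. Cyp2e1 and Ttr were called higher among these 6, Ttr with overlap between genotypes and close to the threshold (adjusted p = 0.0498). Alb, which made up most of the sum, also overlapped and was not called (0.56, adjusted p = 0.132). The bile duct and ductular markers Krt19, Krt7, Epcam, Sox9, Spp1 and Cftr were all lower in SHMT2 HKO (6 of 6 called) and summed to 956 to 1188 CPM against 128 to 246 CPM. Of 7 stellate cell and fibroblast markers 4 were lower, and their sum was 1189 to 1268 CPM against 286 to 742 CPM. In whole tissue, fewer cells of a type and less RNA per cell cannot be told apart.

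Glutathione is a tripeptide of glutamate, cysteine and glycine that liver cells make in large amounts. Glutamate-cysteine ligase (Gclc and Gclm) and glutathione synthetase (Gss) build it, peroxidases spend it on peroxides, transferases attach it to reactive compounds, and Gsr returns its oxidized form to the reduced one. NRF2, encoded by Nfe2l2, is the transcription factor that raises many of these genes under oxidative or electrophilic stress, and KEAP1 holds it in check by directing its degradation. SHMT2 is a mitochondrial enzyme that converts serine to glycine, 1 of the building blocks of glutathione.

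In SHMT2 HKO livers, 6 of the 44 genes were higher and 8 were lower, while 30 were not called at an adjusted p under 0.05. Of all genes tested, 12.5% were higher and 16.5% lower, so the members' shares of 13.6% and 18.2% were near the background. The changes lay in single peroxidases and transferases and in Ggt1, and none of the 10 genes of synthesis, recycling, NRF2 control and detoxification targets was called. Higher were the transferases Gsta3, Gstt1, Gstt3, Gstz1 and Mgst1 and the peroxidase Gpx6. Lower were the peroxidases Gpx2, Gpx3, Gpx7 and Gpx8, the transferases Gsta2, Gstm5 and Gstp2, and Ggt1. The median log2 fold change of the 44 genes was 0.14, against 0.03 over all genes tested. All 3 SHMT2 HKO mice lay above all 3 SHMT2 fl/fl mice for 9 members and below them for 12, where 21.9% and 25% of all genes did so. Of the 44 genes, 5 were called with a log2 fold change of at least 1 and 7 with -1 or lower. The shares over all genes tested were 3.59% and 12%. Gpx2 and Mgst2 reached the count minimum through SHMT2 fl/fl mice alone and Gpx6 through SHMT2 HKO mice alone. Among the other 41 members, 5 were higher and 7 lower, of which 4 were at 1 or above and 6 at -1 or below.

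**Figure D1:**
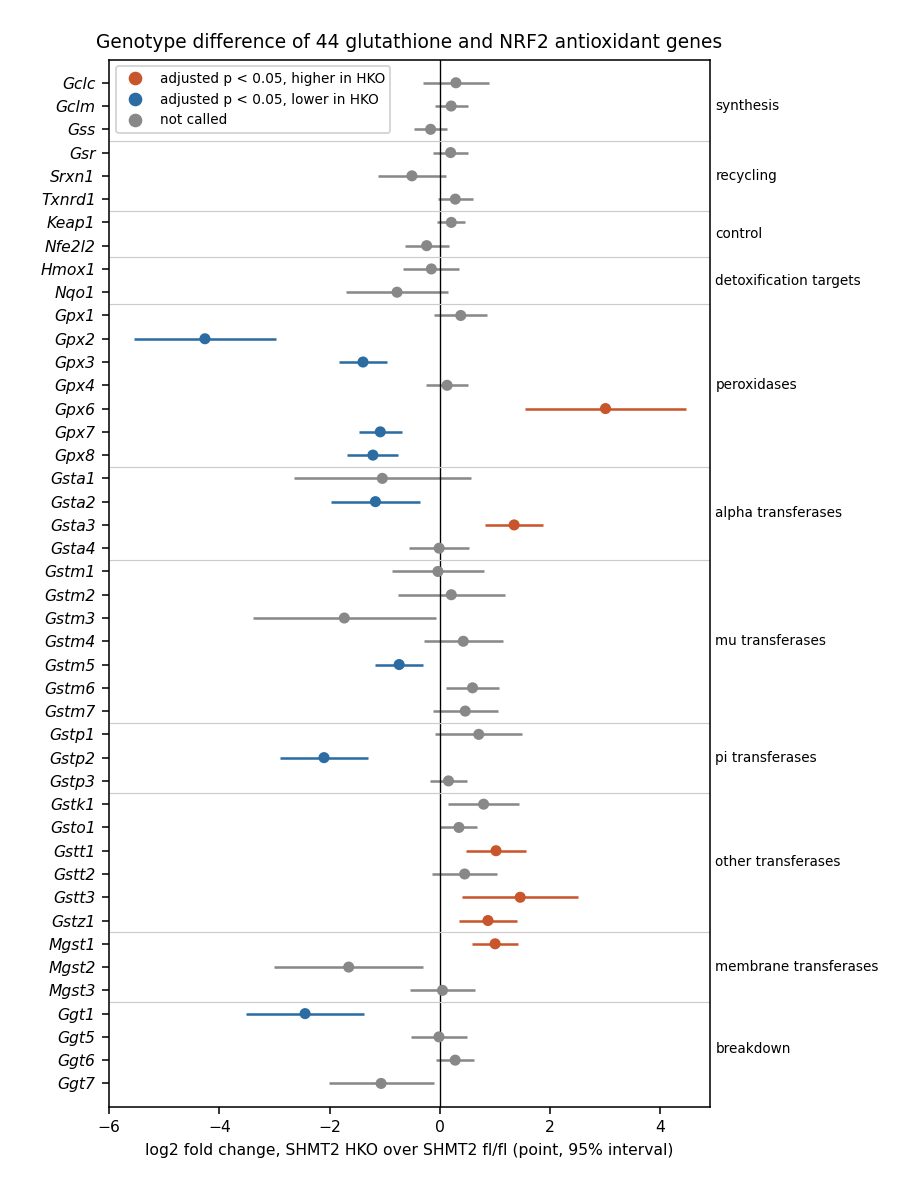
The log2 fold change of SHMT2 HKO over SHMT2 fl/fl for each of the 44 genes (point) with its 95% interval (line), ordered by role, from 3 against 3 mice. Orange points are the 6 genes higher and blue points the 8 genes lower at an adjusted p under 0.05, and all 10 genes of the 4 uppermost roles are grey.

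How the libraries are scaled shifted every gene. TMM factors were 1.13 to 1.21 in SHMT2 fl/fl and 0.802 to 0.984 in SHMT2 HKO libraries. ERCC spike-in RNAs, added to the samples, made up 1.47%, 1.84% and 1.42% of counts in SHMT2 fl/fl mice 1, 2 and 3. In SHMT2 HKO mice 1, 2 and 3 they made up 2.75%, 2.31% and 1.35%. ERCC scaling thus rests on shares that varied widely within SHMT2 HKO, with mouse 3 below all controls. Without TMM the median of all genes tested moved from 0.03 to -0.40, and with scaling to the ERCC spike-in RNAs to -0.69. The members' median moved with it, to -0.29 and -0.55, and stayed 0.11 and 0.14 above that of all genes. The split of members was then 4 higher and 12 lower without TMM (all genes 539 and 4923), 1 and 12 with ERCC scaling (107 and 2759), and 5 and 8 with upper-quartile factors (1461 and 3039), against 2012 and 2651 of all genes with TMM. Gpx6, which met the count minimum through SHMT2 HKO mice alone, was the member still called higher with ERCC scaling. Leaving out 1 mouse left 3 members higher without SHMT2 fl/fl mouse 1 or mouse 3 and 10 without SHMT2 HKO mouse 3, while 6 to 10 were lower. Of all genes, 936, 805 and 2521 were higher in these 3 fits, and 1621 to 3076 were lower with each mouse left out.

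**Figure D2:**
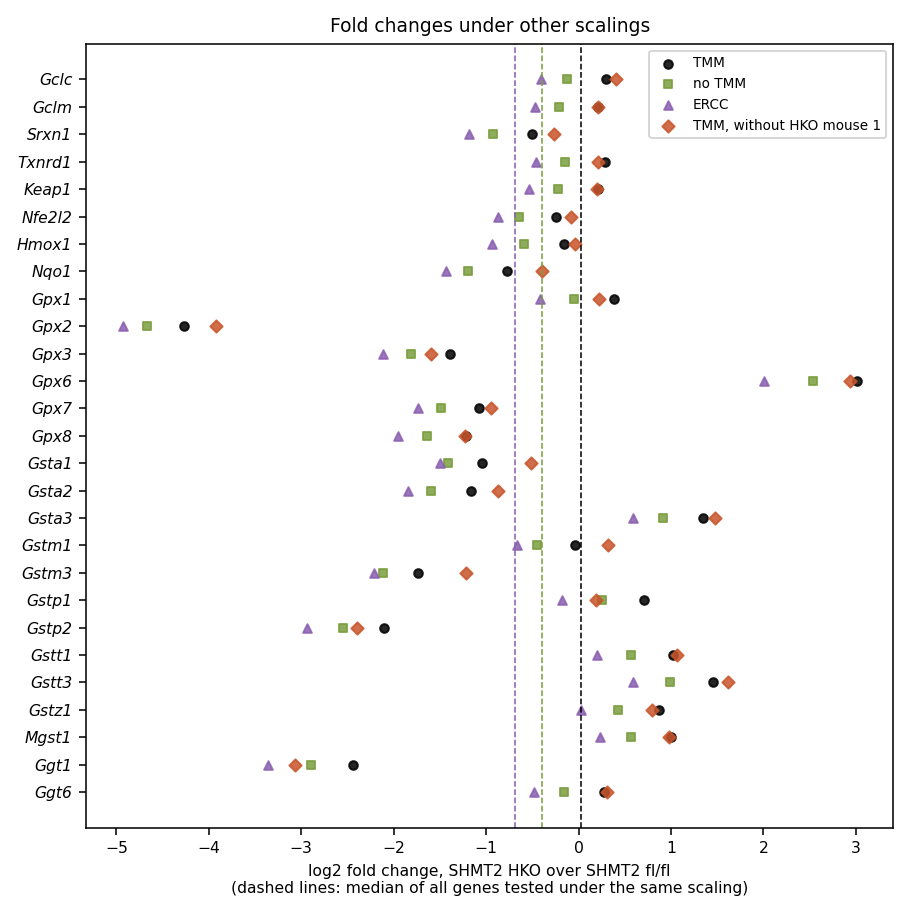
Log2 fold changes, SHMT2 HKO over SHMT2 fl/fl, of 27 members under TMM (black), library size without TMM (green), ERCC scaling (purple) and TMM without SHMT2 HKO mouse 1 (orange), with dashed lines at the median of all genes tested under each of the first 3. Genes move left together with the median of all genes, and Gpx2, Ggt1, Gstp2 and Gstm3 lie to the left of 0 under all 4.

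The genes that build glutathione were not called. Gclc, the catalytic subunit of glutamate-cysteine ligase, was at 211, 97.9 and 142 CPM in SHMT2 fl/fl mice 1, 2 and 3 and at 155, 191 and 206 CPM in SHMT2 HKO mice. The controls spanned the SHMT2 HKO range, and the log2 fold change was 0.29 (95% interval -0.31 to 0.90, adjusted p = 0.442). Gclm, the modifier subunit that makes the ligase more efficient, was at 168, 145 and 154 CPM against 179, 164 and 196 CPM, with overlap between genotypes (0.21, interval -0.09 to 0.50, adjusted p = 0.271). Gss, which adds the glycine, averaged 134 ± 10.6 CPM (SD, n = 3) against 120 ± 11.2 CPM (-0.17, interval -0.46 to 0.13, adjusted p = 0.365). These intervals leave room for changes of up to 0.90 for Gclc and 0.50 for Gclm, and down to -0.46 for Gss. Gclc, Gclm and Gsr were negative without TMM or with ERCC scaling, and Gss was called lower without TMM (-0.58, adjusted p = 0.0242).

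The recycling genes did not separate the genotypes beyond the test. Gsr, glutathione reductase, averaged 65.6 ± 10.6 CPM against 75.1 ± 2.66 CPM (0.20, adjusted p = 0.321). Txnrd1, the cytosolic thioredoxin reductase and a classical NRF2 target, was at 140, 111 and 137 CPM in SHMT2 fl/fl and 172, 147 and 153 CPM in SHMT2 HKO mice. All SHMT2 HKO mice lay above all controls, yet the difference was not called (0.28, interval -0.04 to 0.60, adjusted p = 0.168), and it was -0.15 without TMM. Srxn1, sulfiredoxin, which repairs over-oxidized peroxiredoxins, was at 149, 91.6 and 134 CPM against 56.4, 110 and 97.7 CPM. Its groups overlapped (-0.51, adjusted p = 0.195), and without TMM it was called lower (-0.92, adjusted p = 0.0409).

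Neither the gene of NRF2 nor that of its repressor was called. Nfe2l2 was at 76.2, 60.6 and 72.2 CPM in SHMT2 fl/fl and 46.1, 60.1 and 71.0 CPM in SHMT2 HKO mice, with mouse 1 the lowest (-0.24, interval -0.64 to 0.16, adjusted p = 0.338). Keap1 was at 65.5, 70.8 and 67.5 CPM against 79.4, 84.3 and 71.9 CPM. All SHMT2 HKO values of Keap1 were above all controls, with a difference not called (0.21, interval -0.05 to 0.47, adjusted p = 0.198) that was -0.22 without TMM. These are transcript levels, and NRF2 is controlled mainly through the stability of its protein, which was not analysed here.

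The detoxification targets most often read as NRF2 activity were not called either. Nqo1, a quinone reductase, was at 15, 14.1 and 12.4 CPM in SHMT2 fl/fl and 3.23, 12.7 and 8.46 CPM in SHMT2 HKO mice. Only SHMT2 HKO mouse 2 reached the control range, and the interval was wide (-0.78, interval -1.71 to 0.16, adjusted p = 0.188). Hmox1, heme oxygenase, was at 35.2, 25.5 and 39.4 CPM against 25.0, 39.4 and 25.7 CPM, overlapping (-0.15, interval -0.66 to 0.35, adjusted p = 0.637).

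Of the 7 peroxidases, 4 were lower, 1 was higher and 2 were not called, where 16.5% of all genes were lower and 12.5% higher. Gpx2 and Gpx6, among those called, met the count minimum through 1 genotype alone. Gpx1, the abundant cytosolic enzyme, was at 1234, 1264 and 1662 CPM in SHMT2 fl/fl and 2196, 1677 and 1540 CPM in SHMT2 HKO mice, with overlap (0.38, adjusted p = 0.209, negative without TMM). Gpx4, which reduces lipid peroxides in membranes, averaged 405 ± 23 CPM against 444 ± 76.3 CPM (SD, n = 3; 0.13, adjusted p = 0.588, negative without TMM). For Gpx4, 17.4% of 150-base stretches of its exons also occur in the pseudogene Gpx4-ps2.

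The 4 peroxidases that fell were all below Gpx1 and Gpx4 in CPM per kb of exon. Gpx2 (chromosome 12, 76792333 to 76795554, GRCm38), known from the epithelium of the gut, was at 5.11, 2.82 and 2.19 CPM in SHMT2 fl/fl mice and at 0.0849, 0.101 and 0.315 CPM in SHMT2 HKO mice. These values rest on 209, 75 and 84 counts against 2, 2 and 8 counts, and no SHMT2 HKO mouse came near the controls. The log2 fold change was -4.26 (SE 0.56, interval -5.55 to -2.97, adjusted p = 0.00197), the largest decrease among the members, and -5.16 without SHMT2 HKO mouse 3. Gpx2 met the count minimum through SHMT2 fl/fl mice alone, so its place among the members rests on the group where it is high. Among the 41 members that met the minimum in both genotypes, the lowest value was -2.45. In these livers Gpx2 fell with the ductular markers, which had log2 fold changes of -3.67 to -2.11, and the part of those cells in its change was not tested.

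Gpx3, the peroxidase secreted into plasma, was at 76.1, 75.7 and 79.1 CPM in SHMT2 fl/fl and 36.9, 21.0 and 29.9 CPM in SHMT2 HKO mice. The controls were within a few CPM of each other and the highest SHMT2 HKO mouse lay far below their lowest (-1.39, SE 0.19, adjusted p = 0.00223). Gpx7 and Gpx8 encode peroxidases of the endoplasmic reticulum. Gpx7 was at 11.3, 12.5 and 12.1 CPM against 4.63, 6.03 and 6.30 CPM (-1.08, SE 0.17, adjusted p = 0.00364). Gpx8 was at 5.72, 5.76 and 4.78 CPM against 2.38, 2.38 and 2.24 CPM (-1.21, SE 0.20, adjusted p = 0.00437). Neither gene overlapped between genotypes. Gpx3, Gpx7 and Gpx8 were called lower under all 17 alternatives run. Of the 7 stellate cell and fibroblast markers, Col1a1, Col3a1, Pdgfrb and Des fell in the same livers, by 1.86, 1.72, 1.46 and 0.60 on the log2 scale. Lrat, Dcn and Acta2 overlapped between genotypes and were not called (log2 fold changes of 0.03, -0.60 and -0.59). The part of stellate cells and fibroblasts in the fall of Gpx3, Gpx7 and Gpx8 was not tested.

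Gpx6, a peroxidase known from olfactory tissue, was higher but close to the counting limit. It met the count minimum through SHMT2 HKO mice alone, so its place among the members rests on the group where it is high. It had 6, 3 and 8 counts in the control libraries and 33, 42 and 11 in those of SHMT2 HKO mice, which is 0.147, 0.113 and 0.209 CPM against 1.40, 2.13 and 0.433 CPM. The groups did not overlap and SHMT2 HKO mouse 3 was the lowest of its group (3.01, SE 0.64, interval 1.54 to 4.47, adjusted p = 0.0107).

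**Figure D3:**
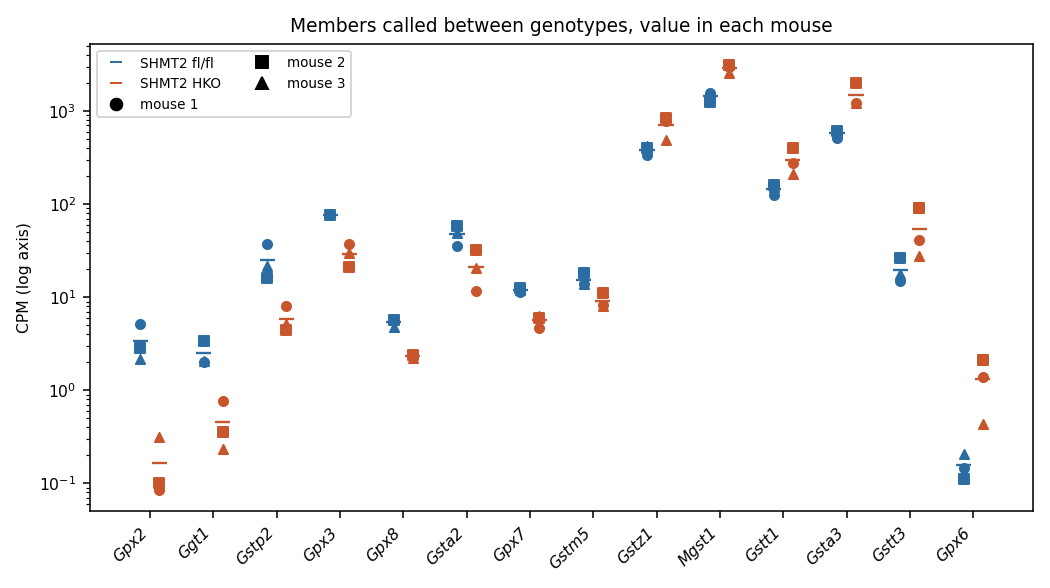
CPM on a log axis of the 14 members called between genotypes in each of the 6 mice, with SHMT2 fl/fl in blue and SHMT2 HKO in orange, a symbol for each mouse and a short line at each group mean. The groups do not overlap for any of the 14, and Gpx2, Gpx6, Gpx8 and Ggt1 lie below 10 CPM in every mouse.

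The promoters of 6 members are printed because these genes moved in different directions, or, for Gstp1 and Gstp2, because neighbours with similar promoters gave different values. Each runs from 250 bases before to 50 bases after the gene start, 5′ to 3′ in the direction of the gene, from RefSeq with coordinates in GRCm38.p6. Capitals mark matches to the core of the antioxidant response element to which NRF2 binds, written TGACNNNGC, and to its variant TGAGTCAGC, each on either strand.
Gsta3, chr1:21240335-21240634, plus strand: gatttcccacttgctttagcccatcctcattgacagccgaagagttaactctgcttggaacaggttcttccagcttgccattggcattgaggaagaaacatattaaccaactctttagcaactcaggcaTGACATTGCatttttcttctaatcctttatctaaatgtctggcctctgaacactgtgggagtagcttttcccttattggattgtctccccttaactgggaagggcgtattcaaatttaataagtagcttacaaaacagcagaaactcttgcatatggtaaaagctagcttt
Mgst1, chr6:138140277-138140576, plus strand: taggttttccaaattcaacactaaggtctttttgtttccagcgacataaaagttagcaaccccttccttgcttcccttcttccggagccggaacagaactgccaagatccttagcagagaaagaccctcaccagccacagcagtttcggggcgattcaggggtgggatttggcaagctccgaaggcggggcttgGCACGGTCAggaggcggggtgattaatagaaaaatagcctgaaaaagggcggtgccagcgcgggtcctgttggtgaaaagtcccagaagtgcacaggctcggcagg
Gstp1, chr19:4037863-4038162, minus strand: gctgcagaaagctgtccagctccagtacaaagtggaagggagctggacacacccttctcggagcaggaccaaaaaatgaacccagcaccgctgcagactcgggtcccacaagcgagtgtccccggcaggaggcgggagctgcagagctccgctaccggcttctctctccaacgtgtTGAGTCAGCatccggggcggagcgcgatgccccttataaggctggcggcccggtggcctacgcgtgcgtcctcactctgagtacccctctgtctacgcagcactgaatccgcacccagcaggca
Gstp2, chr19:4042172-4042471, minus strand: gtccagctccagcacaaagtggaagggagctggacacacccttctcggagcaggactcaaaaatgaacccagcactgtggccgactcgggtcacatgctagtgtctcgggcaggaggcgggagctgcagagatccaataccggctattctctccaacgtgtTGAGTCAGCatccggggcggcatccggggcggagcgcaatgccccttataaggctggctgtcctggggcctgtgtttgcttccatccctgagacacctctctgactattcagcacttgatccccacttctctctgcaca
Gstm5, chr3:107895604-107895903, plus strand: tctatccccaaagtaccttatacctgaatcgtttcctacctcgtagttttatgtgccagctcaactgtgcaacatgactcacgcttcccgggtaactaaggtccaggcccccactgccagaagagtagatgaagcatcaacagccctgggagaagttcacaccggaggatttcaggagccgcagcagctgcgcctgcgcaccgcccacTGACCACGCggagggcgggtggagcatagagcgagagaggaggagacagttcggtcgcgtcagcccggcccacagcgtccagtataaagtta
Gpx2, chr12:76795505-76795804, minus strand: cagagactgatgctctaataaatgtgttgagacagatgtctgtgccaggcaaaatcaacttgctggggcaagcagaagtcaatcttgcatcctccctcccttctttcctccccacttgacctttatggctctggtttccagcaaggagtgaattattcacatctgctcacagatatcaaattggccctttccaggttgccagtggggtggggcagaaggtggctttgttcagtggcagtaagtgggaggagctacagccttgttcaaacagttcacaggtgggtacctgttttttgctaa
Gsta3 and Mgst1 rose, Gstp2, Gstm5 and Gpx2 fell, and Gstp1 was not called, and no capitals stand in the Gpx2 window. The windows not printed show no match for Gstt1, Gstt3, Gstz1 and Gpx6, which also rose. Another start site of Mgst1, with its window at chr6:138141337-138141636, had no match either. Of the others that fell, Ggt1 had matches and Gpx3, Gpx7, Gpx8 and Gsta2 had none. Matches are thus more frequent in the printed windows than in those of the other called members. Gclm, Gstm7, Nfe2l2, Srxn1 and Txnrd1, which were not called, had matches too. RefSeq windows were at hand for 38 of the 44 genes, with 54 start sites. The TGACNNNGC core was in 20.4% of these 54 windows (11) and in 12.4% of all 32851 promoter windows. TGACTCAGC, a form contained in that core, was in 0 of 54 and 0.454% of all. TGAGTCAGC was in 3 of 54 windows (5.56%), those of Gstp1, Gstp2 and Srxn1, and in 0.414% of all. That variant was added after the Gstp2 window had been seen. A match is a description of letters, not of binding.

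The alpha transferases, which conjugate glutathione to products of lipid peroxidation among others, moved in both directions. Gsta3, the most abundant of them, was at 511, 615 and 611 CPM in SHMT2 fl/fl and 1213, 1981 and 1230 CPM in SHMT2 HKO mice. Every SHMT2 HKO mouse was well above the controls and mouse 2 was the highest (1.35, SE 0.23, adjusted p = 0.00478), while with ERCC scaling the difference was 0.59 and not called (adjusted p = 0.335). Gsta2 was at 35.8, 58.9 and 49.3 CPM against 11.6, 32.1 and 20.4 CPM. Its groups did not overlap, though SHMT2 HKO mouse 2 and SHMT2 fl/fl mouse 1 were close (-1.17, SE 0.35, adjusted p = 0.0405). The Gsta2 call was lost without any single SHMT2 fl/fl mouse (adjusted p = 0.0536, 0.132 and 0.109 without mouse 1, 2 and 3), without SHMT2 HKO mouse 3 (0.129), and when genes with 1 count in any sample were kept (0.184).

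Gsta1 was not called (-1.04, adjusted p = 0.294), with SHMT2 HKO mouse 1 at 0.891 CPM and the other two at 8.10 and 11.1 CPM, against 11.8 to 15.5 CPM in controls. Its values are named because they were seen to depend on a single mouse. Of the 150-base stretches of Gsta1 exons, 68.4% occur in other genes, Gsta2 among them, and 19.6% of those of Gsta2, so reads of both are uncertain. Gsta4, active on hydroxynonenal, averaged 90.6 ± 15.9 CPM against 89.9 ± 27.8 CPM (-0.01, adjusted p = 0.978), and was 0.22 without SHMT2 HKO mouse 1.

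The 7 mu transferases are neighbours on chromosome 3, between 107895821 and 108044894. The most abundant, Gstm1, was at 1835, 1752 and 1985 CPM in SHMT2 fl/fl and 832, 2541 and 2069 CPM in SHMT2 HKO mice. SHMT2 HKO mouse 1 was below and the other two above the controls, and the log2 fold change of -0.03 (interval -0.86 to 0.79, adjusted p = 0.953) became 0.31 without mouse 1 (adjusted p = 0.246). Gstm3 was at 541, 652 and 629 CPM against 28.4, 253 and 267 CPM. All SHMT2 HKO mice were below all controls, but the difference was not called (-1.73, SE 0.70, adjusted p = 0.107). Without that mouse Gstm3 was lower (-1.22, adjusted p = 0.00155), and it was lower with ERCC scaling (-2.22, adjusted p = 5.15e-05). Gstm3 too was singled out after its values were seen.

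Gstm5, at the plus-strand end of the cluster, was lower at 13.7, 18.1 and 13.7 CPM against 8.32, 11.0 and 7.99 CPM (-0.74, SE 0.19, adjusted p = 0.0215). No SHMT2 HKO mouse reached the controls, and the call was lost without SHMT2 fl/fl mouse 2 (adjusted p = 0.0846) or mouse 3 (0.0545). Exons of Gstm5 overlap those of an opposite-strand gene over 178 bases. Gstm2, Gstm4, Gstm6 and Gstm7 had log2 fold changes of 0.21 to 0.59 and were not called, with Gstm6 the nearest (all SHMT2 HKO mice above, adjusted p = 0.0664). All 4 were negative with ERCC scaling. Without SHMT2 HKO mouse 1, Gstm4 and Gstm6 were called higher (adjusted p = 0.0232 and 0.0340), and without mouse 3 Gstm6 and Gstm7 were (0.0364 and 0.00822). DESeq2 with every mouse called Gstm6 higher (adjusted p = 0.0322). Gstm2 was -0.44 without mouse 2.

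The pi transferases differed from neighbour to neighbour on chromosome 19. Gstp1, the abundant one, was at 784, 553 and 663 CPM in SHMT2 fl/fl and 1751, 723 and 792 CPM in SHMT2 HKO mice. SHMT2 HKO mouse 1 alone stood above the controls by a wide margin (0.71, interval -0.08 to 1.49, adjusted p = 0.158), and the value was -0.18 with ERCC scaling. Gstp2 was at 37.2, 16.2 and 21.8 CPM against 7.98, 4.41 and 5.12 CPM, with no overlap (-2.10, SE 0.35, interval -2.90 to -1.30, adjusted p = 0.00443), and it was called in all 17 alternatives. Gstp2 shares 35.7% of its 150-base exon stretches, and Gstp1 17.6%, with the other or with the pseudogene Gstp-ps, so the split of reads between the pair is uncertain. Gstp3 averaged 18.9 ± 1.26 CPM against 21.1 ± 3.36 CPM (0.16, adjusted p = 0.465, negative without TMM).

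All 6 kappa, omega, theta and zeta transferases had positive log2 fold changes with TMM, and 3 were called. Of all 16089 genes tested, 8351 were positive and 12.5% were called higher. Gstt1, which acts on small halogenated compounds, was at 126, 162 and 152 CPM in SHMT2 fl/fl and 280, 403 and 212 CPM in SHMT2 HKO mice, without overlap (1.02, SE 0.24, adjusted p = 0.0148). Gstz1, which works in tyrosine breakdown as maleylacetoacetate isomerase, was at 338, 402 and 416 CPM against 783, 849 and 487 CPM (0.87, SE 0.23, adjusted p = 0.0227). SHMT2 HKO mouse 3 was nearest to the controls for both. Gstt3 was at 14.9, 26.2 and 17.7 CPM against 41.6, 91.8 and 28.0 CPM, with SHMT2 HKO mouse 3 just above the highest control (1.46, SE 0.44, adjusted p = 0.0468).

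None of these 3 calls held throughout. Gstt1 was not called with ERCC scaling (0.20, adjusted p = 0.734) or without SHMT2 fl/fl mouse 1 (0.0653) or mouse 3 (0.0565). Gstz1 was not called with ERCC scaling (0.03, adjusted p = 0.960), without TMM (0.0720), or without SHMT2 fl/fl mouse 1, 2 or 3 (0.0919, 0.0712 and 0.0680) or SHMT2 HKO mouse 2 (0.0734). Gstt3 was called in 8 of 17 alternatives. It was lost without each mouse but SHMT2 HKO mouse 3 (adjusted p = 0.0626 to 0.140), and was 0.83 without SHMT2 HKO mouse 2. Exons of Gstt3 overlap the same-strand gene Gm20441 over 524 bases and those of Gstz1 overlap opposite-strand genes over 621 bases. Exons of Keap1, Gclm, Gss and Ggt7 also overlap those of opposite-strand genes, and the use of strand in counting is not given in the sources used here. Gstk1, of mitochondria and peroxisomes, Gsto1 and Gstt2 were at 0.80, 0.35 and 0.45 on the log2 scale and were not called, and all 3 were negative with ERCC scaling. Without SHMT2 HKO mouse 3, Gstk1 (1.04, adjusted p = 0.00399) and Gsto1 (0.45, adjusted p = 0.0221) were called higher, and DESeq2 called Gstk1 (adjusted p = 0.0181).

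Mgst1, the microsomal transferase of the endoplasmic reticulum and outer mitochondrial membrane, was at 1554, 1263 and 1514 CPM in SHMT2 fl/fl and 2997, 3115 and 2574 CPM in SHMT2 HKO mice. This was an increase by 2.01-fold (SE 0.18 and 95% interval 0.59 to 1.42 on the log2 scale, adjusted p = 0.00565), with each SHMT2 HKO mouse above the highest control. It was called in 16 of 17 alternatives, and with ERCC scaling it was 0.23 (adjusted p = 0.665). Mgst3 averaged 21.4 ± 3.75 CPM against 22.1 ± 7.48 CPM (0.05, adjusted p = 0.906). Mgst2 was at under 1 CPM in every mouse (-1.65, adjusted p = 0.0672), and was called lower without TMM (adjusted p = 0.0258) and with ERCC scaling (0.00873). The sign of Mgst3 changed with the scaling and with the mouse left out.

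Among the genes of glutathione breakdown, Ggt1 fell. It encodes the cell-surface enzyme that removes the glutamyl group from glutathione outside the cell. Ggt1 (chromosome 10, 75561604 to 75586200) was at 2.03, 3.35 and 2.09 CPM in SHMT2 fl/fl and 0.764, 0.354 and 0.236 CPM in SHMT2 HKO mice, from 80 to 89 counts against 6 to 18. The groups did not overlap (-2.45, SE 0.47, interval -3.52 to -1.37, adjusted p = 0.00720), and without SHMT2 HKO mouse 1 the value was -3.07. Ductular markers fell in the same livers (above), and their part in the change of Ggt1 was not tested. Ggt6, the most abundant Ggt gene, was at 27.4, 33.3 and 31.4 CPM against 36.0, 44.3 and 31.6 CPM, overlapping (0.28, adjusted p = 0.201, negative without TMM). Ggt5 was -0.02 (adjusted p = 0.968) and Ggt7 -1.07 (adjusted p = 0.0885), the latter with all SHMT2 HKO mice below the controls. Ggt7 was called lower by DESeq2 (adjusted p = 0.0405), without TMM (0.0284), with ERCC scaling (0.0178) and without SHMT2 HKO mouse 1 (-1.59, adjusted p = 0.00920), and the sign of Ggt5 changed without SHMT2 HKO mouse 1 (0.17).

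Per kilobase of exon, the scale on which genes can be set side by side, Gstm1 was the highest member in SHMT2 fl/fl at 1261 ± 80.1 CPM per kb (SD, n = 3). Gpx1 at 962 ± 166, Mgst1 at 717 ± 78.3, Gstm3 at 463 ± 44.9 and Gstp1 at 431 ± 74.8 CPM per kb came next. Gstm3 and Gstp1 did not differ beyond their spread. In SHMT2 HKO the order was Mgst1 at 1438 ± 141, Gpx1 at 1252 ± 240, Gstm1 at 1232 ± 599 and Gstp1 at 703 ± 371 CPM per kb, with the first 3 within the spread of Gstm1. Gsta3 was at 339 ± 101 CPM per kb and Gstm3 at 139 ± 102 CPM per kb. The peroxidases that fell, other than Gpx3, were at 9.27 CPM per kb or less in SHMT2 fl/fl.

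**Figure D4:**
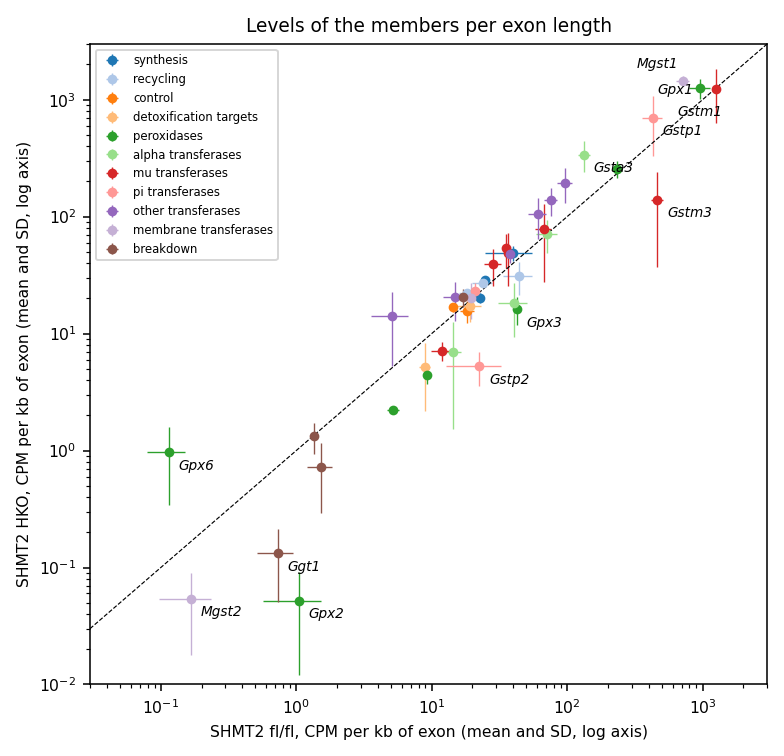
Mean level of each member in SHMT2 HKO (vertical) against SHMT2 fl/fl (horizontal), in CPM per kb of exon on log axes, coloured by role, with bars for the SD over 3 mice and a dashed line where both are equal. Mgst1 and Gsta3 lie above the line, Gpx2, Ggt1, Gstp2 and Gpx3 below it, and Gstm1 has a vertical SD of 599.

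The summed CPM of all 44 genes was 8856 to 9955 in SHMT2 fl/fl and 11498 to 14463 in SHMT2 HKO mice, without overlap. Mgst1 and Gsta3 made up most of that gap. Alpha transferases summed to 634 to 791 CPM against 1285 to 2136 CPM and membrane transferases to 1285 to 1573 CPM against 2602 to 3140 CPM. Mu transferases summed to 2656 to 2937 CPM against 1141, 3384 and 2648 CPM, with SHMT2 HKO mouse 1 far below. The synthesis genes summed to 365 to 516 CPM against 459 to 530 CPM. As shares of the raw counts, all 44 genes held 1.02% to 1.12% against 0.989% to 1.16%, which overlap.

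The SHMT2 HKO mice differed among themselves. Mouse 1 was the lowest of its group for 20 of the 44 members and mouse 2 the highest for 25. The median member lay, relative to the control mean on the log2 scale, at -0.24 in mouse 1, 0.22 in mouse 2 and 0.05 in mouse 3. The controls lay between -0.04 and 0.04. Each control is part of the mean it is set against, so the control and SHMT2 HKO ranges cannot be compared directly. Genes in which mouse 1 was far below the other two included Gstm3, Gsta1, Gstm1 and Nqo1, and Gstp1 was highest in it.

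**Figure D5:**
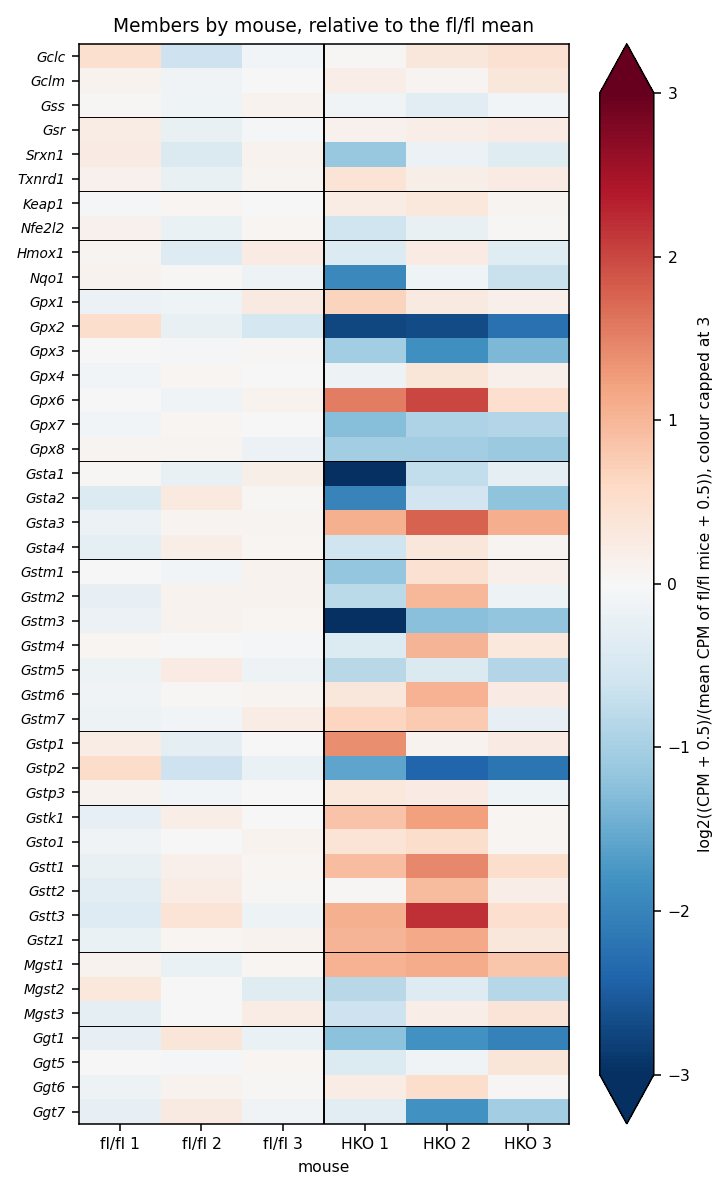
Each of the 44 members (rows, grouped by role) in each mouse (columns), as log2 of CPM plus 0.5 over the mean of the SHMT2 fl/fl mice plus 0.5, with colour capped at 3. Gpx2, Gpx3, Gpx7, Gpx8, Gstp2 and Ggt1 are blue in every SHMT2 HKO mouse, Gsta3, Gstt1 and Mgst1 are red in each, and mouse 1 is the darkest for Gstm3 and Gsta1.

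Of 23 tested glutathione genes outside the members' symbols, 8 were higher and 6 lower (34.8% and 26.1%, against 12.5% and 16.5% of all genes), a description that carries no test, and with ERCC scaling 0 were higher and 6 lower. The higher genes were Chac2, Oplah, Glrx, Glrx5, Hagh, Glo1, Esd and Anpep, of which Hagh and Glo1 alone stayed positive with ERCC scaling. Glo1, the glyoxalase that detoxifies methylglyoxal with glutathione, was at 172, 157 and 172 CPM in SHMT2 fl/fl and 387, 353 and 263 CPM in SHMT2 HKO mice, 2-fold higher (adjusted p = 0.00457), and its log2 fold change was 0.18 with ERCC scaling. Chac1, which cleaves glutathione inside cells, was at 5.21, 6.40 and 4.57 CPM against 18.1, 5.27 and 14.3 CPM. SHMT2 HKO mouse 2 stayed in the control range, and Chac1 was not called (1.23, adjusted p = 0.0518). It was called in 3 of 17 alternatives, among them without that mouse (1.59, adjusted p = 0.00734) and by DESeq2 with every mouse (adjusted p = 0.00821).

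The lower genes of this list included Slc7a11, the cystine importer and an NRF2 target, at 2.79, 1.09 and 1.93 CPM in SHMT2 fl/fl and 0.849, 0.253 and 0.472 CPM in SHMT2 HKO mice (-1.87, adjusted p = 0.0282). That call was lost without SHMT2 fl/fl mouse 1 (adjusted p = 0.113) or mouse 3 (0.0839) and without SHMT2 HKO mouse 2 (0.0802) or mouse 3 (0.0554). Dpep1, a dipeptidase that acts after Ggt1, was lower by a log2 fold change of -2.39 (adjusted p = 0.00690), and -3.18 without SHMT2 HKO mouse 3. The eicosanoid genes Hpgds (-1.59), Ltc4s (-2.10) and Alox5ap (-1.13), which are typical of blood-derived cells, and Clic1 (-1.16) made up the rest. T and B cell markers summed to 12.2 to 16.5 CPM against 2.97 to 3.74 CPM in the same livers. Of these 5, the T cell genes Cd3e, Cd3g and Cd8a were called lower. The B cell genes Cd79a and Ms4a1 were not called (adjusted p = 0.123 and 0.215). Macrophage markers moved in opposite directions, with Cd68 (-0.85), Csf1r (-0.69) and Trem2 (-1.76) lower and Clec4f (2.83) higher among 7, and their sum was 282 to 420 CPM against 337 to 426 CPM. The part of these cells in the fall of the eicosanoid genes was not tested. The list held 14 calls with every mouse, 8, 9 and 7 without SHMT2 fl/fl mouse 1, 2 and 3, and 9, Chac1 among them, without SHMT2 HKO mouse 2. Over all genes tested, the calls were 4663 with every mouse and 2699, 2547, 2426 and 3023 in the same fits.

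Known NRF2 targets beyond the members went both ways as well. Of 29 tested, 9 were higher and 5 lower (31.0% and 17.2%, beside the same 12.5% and 16.5%), and with ERCC scaling 0 were higher and 3 lower. Higher were Prdx6, Txn1, Cat, Sod1, Taldo1, Tkt, Me1, Blvrb and Akr1c13, of which Cat, Sod1 and Me1 alone stayed positive with ERCC scaling. Cat, catalase, was at 1274, 953 and 1200 CPM in SHMT2 fl/fl and 2359, 2408 and 1872 CPM in SHMT2 HKO mice (0.95, adjusted p = 0.00899, and 0.0514 without SHMT2 fl/fl mouse 2). Me1, malic enzyme and a source of NADPH, was at 140, 107 and 131 CPM against 242, 728 and 404 CPM, the largest increase of the list (1.86, adjusted p = 0.00842), and without SHMT2 HKO mouse 2 the value was 1.36. Me1 is also a gene of lipid synthesis, and Cat a peroxisomal enzyme.

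Lower among the targets were G6pdx, Cbr3, Abcc1, Abcc4 and Akr1b8. Cbr3, a carbonyl reductase, was at 23.8, 14.6 and 18.2 CPM in SHMT2 fl/fl and 2.04, 2.73 and 4.13 CPM in SHMT2 HKO mice (-2.66, adjusted p = 0.00122). The exporters Abcc1 and Abcc4, which carry glutathione conjugates among other compounds, were at -1.42 (adjusted p = 0.00455) and -1.88 (adjusted p = 0.00517). G6pdx, the entry enzyme of the pentose phosphate pathway, was at 16.0, 15.6 and 16.9 CPM against 7.30, 12.3 and 10.6 CPM. Its groups did not overlap (-0.69, adjusted p = 0.0306), and the call was lost without any SHMT2 fl/fl mouse (adjusted p = 0.0779 to 0.109) or with ERCC scaling (0.0653). Of 9 regulators and partners of NRF2 only Bach1, a repressor at the same DNA element, was called, at 30.3, 25.9 and 33.5 CPM against 46.7, 36.2 and 61.3 CPM (0.68, adjusted p = 0.0325). That call was lost with upper-quartile factors (adjusted p = 0.0542), without TMM (0.401) and with ERCC scaling (0.925), without any SHMT2 fl/fl mouse (0.0668 to 0.116) and without SHMT2 HKO mouse 3 (0.0582). Over targets and partners, 15 genes were called with every mouse and 6, 5 and 8 without SHMT2 fl/fl mouse 1, 2 and 3, and 9 without SHMT2 HKO mouse 2. Calls over all genes tested fell as well in these fits, from 4663 to 2699, 2547, 2426 and 3023.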

How the data were processed

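Liver RNA libraries were prepared with the NEBNext Ultra kit and sequenced as read pairs on a HiSeq instrument. Per the labels and the study's methods, the authors trimmed reads with Trimmomatic 0.36, aligned them with STAR 2.5.2b to GRCm38 plus ERCC spike-ins, and used featureCounts of Subread 1.5.2 for uniquely mapped reads per gene. The authors deposited these as raw counts per gene with no normalization. The 92 ERCC rows served the ERCC scaling alternative only, and 345 gene IDs without a symbol held 0.0416% of counts. A count of 3 equals 0.0880 to 0.130 CPM.

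Genes were filtered with filterByExpr, scaled by TMM and tested with the quasi-likelihood F test of edgeR 4.0.16 in R 4.3.3 (two-sided, robust dispersions, no covariates), with Benjamini-Hochberg adjustment over 16089 genes. Every adjusted p is from this test unless stated. CPM used TMM-scaled library sizes. Coordinates, exon lengths and shared exon stretches came from the GRCm38 annotation. Alternatives were DESeq2 1.42.0, limma-voom 3.58.1, other scalings and filters, a replicate block and leaving out each mouse. The code was tested on simulated counts with 200 genes changed 4-fold. It recovered 171 of them (85.5%), and 17 further calls were false, 9.04% of the calls. Calls close to the threshold are therefore less certain than their adjusted p alone.

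The members and gene lists were chosen with earlier results of these data known. Values in every mouse are given for members called with an absolute log2 fold change of at least 1, for the most abundant member of each role, and for Gclc, Gclm, Nfe2l2, Keap1, Nqo1, Hmox1 and Srxn1. From the other lists, the rule names genes called with at least that change, Slc7a11, Chac1, G6pdx and Cat. Further genes are named as counts of a list or were chosen after their values were seen.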

Additional observations from a re-analysis of the deposited data

How the results depend on the processing

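Over the 44 members and the other genes called or named, 74 in all, 1253 alternative values were computed. Of these, 1042 kept direction and side of the threshold, 130 lost the call, 22 gained it and 59, in 33 genes, changed sign. No member called between genotypes changed sign. Without TMM the log2 fold changes that did were -0.13 for Gclc, -0.21 for Gclm, -0.16 for Ggt6, -0.0523 for Gpx1, -0.22 for Keap1, -0.15 for Txnrd1, -0.23 for Gsr, -0.29 for Gpx4, -0.24 for Gstm2, -0.0081 for Gstm4, -0.0915 for Gsto1, -0.28 for Gstp3, -0.35 for Mgst3 and -0.0524 for Anpep. With ERCC scaling these 14 were, in the same order, -0.40, -0.48, -0.48, -0.41, -0.53, -0.46, -0.52, -0.56, -0.55, -0.29, -0.44, -0.64, -0.54 and -0.34. ERCC scaling also turned Gstp1 (-0.18), Gstk1 (-0.0740), Gstm6 (-0.19), Gstm7 (-0.43), Gstt2 (-0.29), Chac2 (-0.0807), Oplah (-0.0442), Glrx (-0.14), Glrx5 (-0.0828), Esd (-0.22), Prdx6 (-0.0748), Txn1 (-0.10), Taldo1 (-0.15), Tkt (-0.12), Blvrb (-0.20) and Akr1c13 (-0.0096). Mgst3 was -0.0408 with upper-quartile factors, and Gsta4 0.0011 by DESeq2 and with its size factors. With each mouse left out, Gstm1 ranged from -0.35 to 0.31, Gsta4 from -0.22 to 0.22, Ggt5 from -0.30 to 0.17, Gstm2 from -0.44 to 0.54 and Mgst3 from -0.18 to 0.30. The cause of these changes of sign was not tested.

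Without TMM, 9 wider glutathione genes were called and the members' median was -0.29. With ERCC scaling, 2866 genes, 1 member higher, 6 wider glutathione genes and 3 wider NRF2 genes were called, and the median was -0.55. Leaving out each mouse gave 2426 to 5597 genes called, 3 to 10 members higher, 7 to 15 wider glutathione genes and 5 to 17 wider NRF2 genes. Gpx2, Gpx6, Ggt1, Mgst2 and Slc7a11 gave no value with 10 counts required in every sample. Members called lower numbered 6 to 12 throughout.

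The labels number the mice 1 to 3 in each genotype. Deviations from the group means of same-numbered mice correlated at -0.0459, 0.0125 and -0.0766, so the numbers were not taken to pair the mice. With the replicate block 3584 genes, 5 members higher, 8 members lower and 9 wider NRF2 genes were called, and Gstz1 was lost (adjusted p = 0.0548). Libraries of 23090837 to 34089722 counts limit genes such as Gpx2, Gpx6, Mgst2 and Ggt1, and 3 mice per genotype limit all.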
